A study of Drosophila melanogaster with 4 samples.

Results

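Dimethylation of histone H3 at lysine 9 (H3K9me2) was examined on 3LHet and 3RHet, the sequence scaffolds that hold the mapped pericentric heterochromatin on either side of the centromere of Drosophila melanogaster chromosome 3. In FlyBase Release 5 these scaffolds are 2555491 bp and 2517507 bp long. The members are all regions that the authors listed as enriched on either scaffold, and each is called a domain here. Replicate 1 listed 247 such domains among 6264 enriched regions in all, replicate 2 listed 519 among 10907, and the authors' combined list held 259 among 10762. No region classed as depleted lay on these scaffolds (0 in each of the 3 lists).

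The libraries came from nuclei of heads of adult wild-type Oregon-R flies kept in population cages. ChIP-seq, in which sonicated chromatin is precipitated with an antibody and the recovered DNA is sequenced, was carried out in 2 ChIP libraries, each called against its own input library of genomic DNA. Nothing in the labels says whether the replicates were separate collections of flies, and their spread may be technical. Heads hold many cell types, and a domain is an average over their nuclei. The lists carry no read counts, so depth is unknown, no interval from counting error can be given, and the number and length of called domains can vary with depth.

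H3K9me2 and the related trimethyl mark are placed by histone methyltransferases and bound by the chromodomain protein HP1a, which compacts nucleosomes and can recruit more methyltransferase, so that the mark tends to spread over long tracts. Pericentric heterochromatin of the fly consists largely of transposon remnants and satellite repeats, with a small number of genes set among them. A few of these genes are known to need the heterochromatic setting for normal expression. By the convention of the fly assembly, positions on 3LHet run from arm 3L towards the centromere, and positions on 3RHet run from the centromere towards arm 3R.

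Most of both scaffolds lay inside domains, and both sides of the centromere were covered to nearly the same degree. On 3LHet the domains covered 2133 kb in replicate 1 and 1794 kb in replicate 2, which was 83.5% and 70.2% of the scaffold. On 3RHet they covered 2054 kb and 1761 kb, which was 81.6% and 70.0%. The share was thus lower in replicate 2 on each scaffold, by 13.3 percentage points on 3LHet and 11.6 points on 3RHet. The difference between the sides, 3LHet minus 3RHet, was 1.86 points in replicate 1 and 0.21 points in replicate 2, a mean of 1.04 ± 1.16 (SD, n = 2). This difference was smaller than its own spread between replicates, and p was 0.5 in a two-sided exact permutation test that flips the sign of each replicate's difference (sign-flip test), which is the lowest p that n = 2 allows. The combined list covered 85.6% of 3LHet and 83.6% of 3RHet.

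The same balance was not seen in the assembled arms next to the scaffolds. The last 2 Mb of arm 3L were covered over 68.9% in replicate 1 and 61.1% in replicate 2. The first 2 Mb of arm 3R were covered over 14.5% and 23.6%. 3LHet exceeded its neighbouring arm sequence by 11.8 points ± 3.82, and 3RHet exceeded its neighbour by 56.7 points ± 14.6 (SD, n = 2 each). The step from arm to scaffold was therefore larger on the right side in both replicates, by 52.6 points in replicate 1 and 37.3 points in replicate 2 (exact sign-flip permutation p = 0.5, two-sided, the lowest possible with n = 2). Whether the arm sequences reach equally far into heterochromatin was not tested.

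Against the other mapped heterochromatin, the chromosome 3 scaffolds were covered more. The scaffolds 2LHet, 2RHet, XHet and YHet, pooled by length, were covered over 70.5% in replicate 1 and 59.4% in replicate 2. The chromosome 3 scaffolds exceeded this by 12.1 points and 10.6 points, a mean of 11.4 ± 1.01 (SD, n = 2; exact sign-flip permutation p = 0.5, two-sided, the lowest possible). The most similar scaffold in size, 2RHet, had 71.2% and 60.6%, and lay below 3LHet by 10.9 points ± 1.90 and below 3RHet by 9.87 points ± 0.74. These differences were larger than their spread between replicates, but they depended on long unmarked stretches. With stretches of at least 20 kb that neither replicate marked left out of the length of every Het scaffold, 2RHet lost 570.1 kb, 3LHet 71.0 kb and 3RHet 197.0 kb. The difference to 2RHet was then -0.72 points ± 0.60 for 3LHet and 2.49 points ± 0.13 for 3RHet, and the excess over the pooled scaffolds was 3.78 points ± 0.08 (SD, n = 2 each). Leaving out unmarked sequence raises a scaffold the more, the more of it is left out. The narrowing is therefore built in and says how much of the differences these stretches hold.

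**Figure D1:**
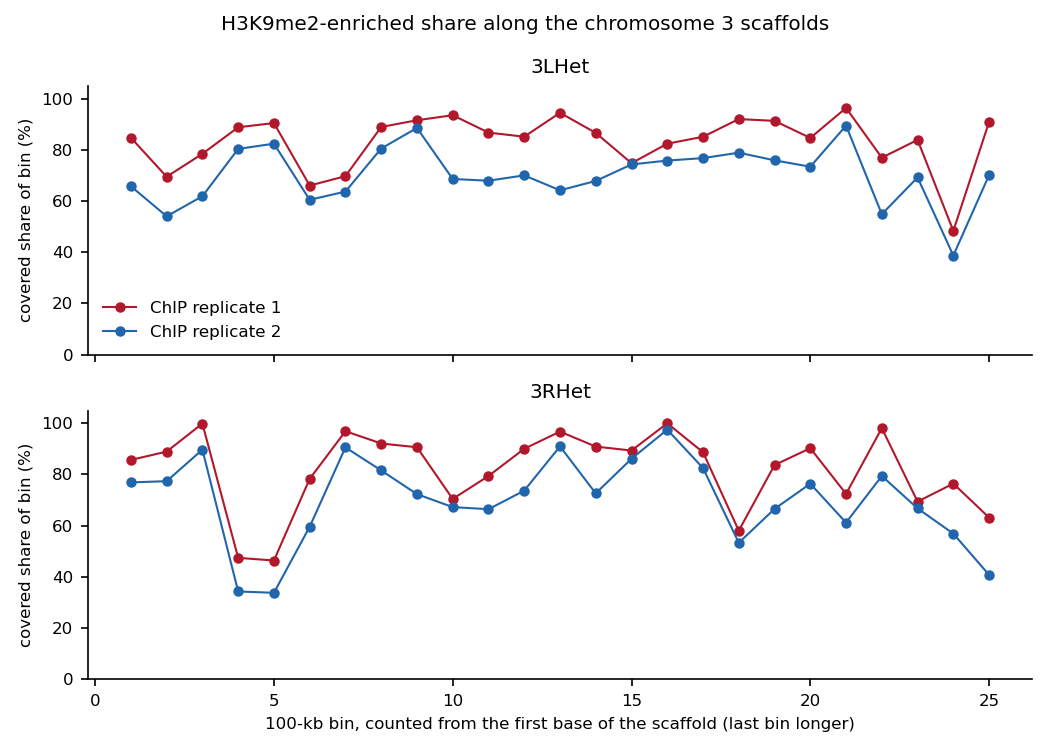
Share of each 100-kb bin (%) inside enriched regions along 3LHet and 3RHet, with 1 point per bin and replicate. Bins are numbered from the first base of the scaffold, and the last bin of each scaffold is longer. Replicate 1 lies above replicate 2 in all 50 bins, and both replicates dip in the same places, at bin 24 of 3LHet and at bins 4 and 5 of 3RHet.

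The profile of coverage along the scaffolds was shared by the replicates, with replicate 1 higher throughout. Replicate 1 was above replicate 2 in 25 of 25 bins of 100 kb on 3LHet and in 25 of 25 on 3RHet, by between 0.49 and 30.3 percentage points. The last bin takes the remainder of the scaffold and is 155.5 kb long on 3LHet and 117.5 kb on 3RHet. Across bins, Pearson's r between the replicates was 0.79 on 3LHet and 0.93 on 3RHet. These coefficients describe bins of the same pair of libraries, which are not independent.

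The least covered bin of 3LHet was the one from 2300001 to 2400000, with 48.4% in replicate 1 and 38.7% in replicate 2. Its most covered bin, from 2000001 to 2100000, had 96.4% and 89.5%. On 3RHet the lowest mean share was in the bin from 400001 to 500000, with 46.4% and 33.7%, and the neighbouring bin from 300001 to 400000 had 47.4% and 34.3%. The most covered bin of 3RHet, from 1500001 to 1600000, was inside domains over its full length in replicate 1 (100%) and over 97.5% in replicate 2. The bins of 3RHet were more unequal than those of 3LHet in each replicate, with an SD across bins of 15.5 and 17.0 points against 10.9 and 11.3 points.

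Each scaffold was also divided into 4 segments of equal length, and both were covered more in their middle segments than in their outer ones. On 3LHet the segments, in order of position, had 78.9%, 88.2%, 84.9% and 81.8% in replicate 1. In replicate 2 they had 67.5%, 72.1%, 74.2% and 66.9%. On 3RHet the segments had 75.5%, 87.3%, 85.4% and 78.3% in replicate 1, and 63.4%, 75.7%, 77.7% and 63.0% in replicate 2. Each outer segment thus lay below each middle segment of the same scaffold in each replicate. This order was lost when the long unmarked stretches described further on were left out. By the assembly convention, the segment nearest the centromere is the fourth on 3LHet and the first on 3RHet. That segment was not the most covered one on either side. The orientation of the scaffolds was not checked here.

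Domains were several kilobases long at the median, and longer in replicate 1 than in replicate 2 on both scaffolds. The median domain on 3LHet measured 8097 bp in replicate 1 and 4152 bp in replicate 2. On 3RHet the medians were 11345.5 bp and 4081 bp. The shortest domains were alike, at 1335 bp and 1306 bp on 3LHet and 1354 bp and 1308 bp on 3RHet. Between the 25th and the 75th percentile, domains on 3RHet ran from 3536 bp to 28474 bp in replicate 1 and from 2150 bp to 9622 bp in replicate 2.

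**Figure D2:**
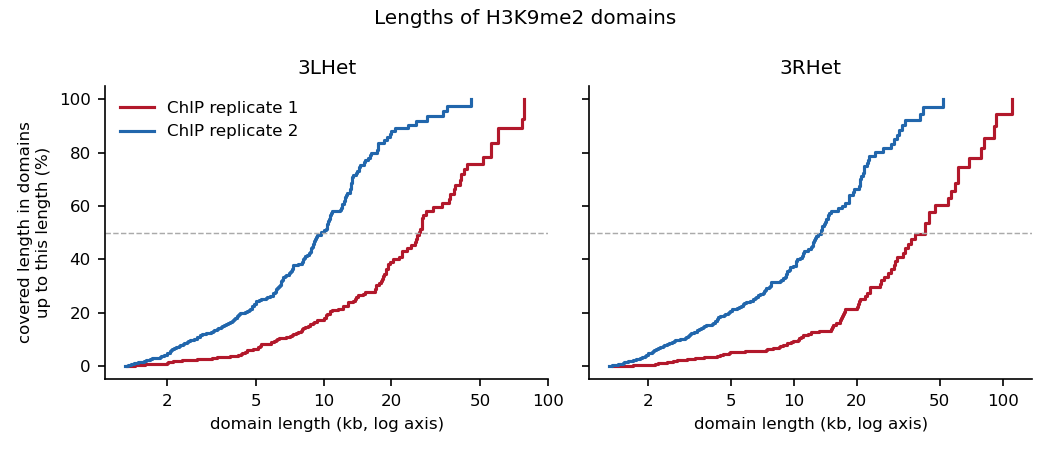
Cumulative share of the covered length (%) held by domains up to a given length (kb, log axis) on each scaffold, with 1 line per replicate and a dashed line at 50%. The line of replicate 1 lies to the right of that of replicate 2 on both scaffolds, crossing 50% near 26.6 kb and 9.78 kb on 3LHet and near 42.6 kb and 13.5 kb on 3RHet.

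Weighted by length, domains as listed were longer on the right side of the centromere in both replicates. On 3LHet 50% of the covered length lay in domains of at least 26552 bp in replicate 1 and 9777 bp in replicate 2. On 3RHet the corresponding lengths were 42632 bp and 13488 bp. The difference, 3LHet minus 3RHet, was -16080 bp in replicate 1 and -3711 bp in replicate 2, a mean of -9896 bp ± 8746 (SD, n = 2; exact sign-flip permutation p = 0.5, two-sided, the lowest possible). The direction turned in replicate 1 when gaps up to 5 kb were joined, with 199056 bp on 3LHet and 125292 bp on 3RHet, whereas replicate 2 then had 77096 bp and 112470 bp. The plain median did not keep the direction either, since 3LHet lay 71 bp above 3RHet in replicate 2. Domains were also more numerous per length on the left side, with 57.5 against 39.7 domains per Mb in replicate 1 and 110 against 94.1 in replicate 2. That difference of 17.0 domains per Mb ± 1.13 (SD, n = 2) was larger than its spread (exact sign-flip permutation p = 0.5, two-sided, the lowest possible). It shrank when gaps up to 1 kb were joined. Domain counts on 3LHet and 3RHet went from 147 and 100 to 86 and 64 in replicate 1. In replicate 2 they went from 282 and 237 to 154 and 142.

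The sides and the replicates also differed at the long end of the distribution. Domains of at least 50 kb numbered 8 on 3LHet and 11 on 3RHet in replicate 1, where they held 24.2% and 39.8% of the covered length. In replicate 2 there were 0 on 3LHet and 1 on 3RHet, the latter with 2.95% of the covered length. Domains of at least 10 kb held 82.9% of the covered length on 3LHet and 90.6% on 3RHet in replicate 1, and 49.1% and 62.3% in replicate 2. The number of domains of at least 10 kb differed less, with 66 and 56 on 3LHet and 54 and 58 on 3RHet.

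The longest domain of the replicate lists was 3RHet:1496308-1607101 in replicate 1, which measured 110.8 kb and had a score of 2.62. The score is the authors' own value per region, has no stated unit and ran from 0.42 to 3.67 over the domains of these scaffolds in replicate 1 and from 0.05 to 4.11 in replicate 2. Replicate 2 covered 97.2% of this stretch with 5 domains, and the combined list held it within a single one. The next longest on this side were 3RHet:857054-950279 (93.2 kb) and 3RHet:218920-309897 (91.0 kb), of which replicate 2 covered 91.2% with 7 domains and 89.8% with 9 domains. All of these were largely marked in replicate 2 and differed in how many pieces the mark was listed as.

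The longest domains of 3LHet were shorter. In replicate 1 they were 3LHet:1043964-1122426 (78.5 kb), 3LHet:1588191-1666039 (77.8 kb) and 3LHet:881683-958297 (76.6 kb). The first of these was the most divided, with 14 domains over 73.2% of it in replicate 2 and 5 domains in the combined list. The second was covered over 90.5% by 4 domains in replicate 2, and the third over 81.3% by 6. The longest domain of replicate 2 on this scaffold, 3LHet:1608289-1653717 (45.4 kb), lay wholly inside the second of them. On 3RHet the longest domain of replicate 2, 3RHet:1496287-1548334 (52.0 kb), lay inside the 110.8-kb domain of replicate 1 over 99.96% of its length.

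Most long domains of replicate 1 were divided in replicate 2. Part of this division is fixed in advance, since the domains were picked as long in replicate 1. Replicate 2 also listed more and shorter domains. Of the 66 domains of at least 10 kb on 3LHet in replicate 1, 58 were met by 2 or more domains of replicate 2, and of the 54 on 3RHet, 49 were. The median number of pieces was 3 on each scaffold, and the median share of such a domain marked in replicate 2 was 85.6% on 3LHet and 85.7% on 3RHet. In the other direction, 259 of the 282 domains of replicate 2 on 3LHet and 218 of the 237 on 3RHet met a single domain of replicate 1. Of the domains of replicate 2, 198 on 3LHet and 188 on 3RHet lay wholly inside domains of replicate 1. Part of this nesting follows from the large share of both scaffolds that replicate 1 covered.

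In base pairs, replicate 2 was nearly contained in replicate 1. The replicates shared 1736 kb on 3LHet, which made up 81.4% of the length covered in replicate 1 and 96.8% of the length covered in replicate 2. On 3RHet they shared 1730 kb, or 84.2% and 98.2%. Sequence marked in replicate 1 alone amounted to 396.8 kb on 3LHet and 324.6 kb on 3RHet. Sequence marked in replicate 2 alone amounted to 57.4 kb and 31.6 kb. The Jaccard index, the shared length as a share of the union, was 79.3% on 3LHet and 82.9% on 3RHet. Replicate 1 covered 83.5% of 3LHet and 81.6% of 3RHet as a whole. Much of the containment and of the Jaccard index therefore follows from coverage alone.

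Stretches marked in replicate 1 alone were mostly short, and some lay close together. In the 30.5-kb gap of replicate 2 at 3LHet:2161154-2191669, replicate 1 marked 61.4% with 6 domains. How evenly such stretches were spread was not tested. Stretches of this kind numbered 333 on 3LHet with a median of 695 bp and 281 on 3RHet with a median of 787 bp. The longest was 3LHet:157869-168559 (10.7 kb), which lay in a domain with a score of 2.11, and 92.3% of it was in the combined list. On 3RHet the longest was 3RHet:1359994-1366030 (6.04 kb), and the combined list contained all of it. Stretches marked in replicate 2 alone reached no more than 2980 bp on 3LHet, at 3LHet:615738-618717, and 3420 bp on 3RHet, at 3RHet:1656386-1659805.

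Whole domains without any counterpart were a minority of each list on these scaffolds. Few are to be had where the other list covers most of a scaffold. The share of untouched regions over a whole list was not computed, so these counts are a description. In replicate 1, 18 of 147 domains on 3LHet and 11 of 100 on 3RHet were not touched by replicate 2. Their median lengths were 2422 bp and 2235 bp, against 10084 bp and 15455 bp for the touched ones. In replicate 2 the untouched domains numbered 2 of 282 and 6 of 237. These 8 had higher scores than the rest of their list, with medians of 3.02 against 1.55 on 3LHet and 2.75 against 1.61 on 3RHet. The untouched domains of replicate 1 had lower scores than the touched ones, with medians of 1.74 against 2.03 and 1.66 against 2.33.

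The highest scores of a list belonged to short domains. On 3LHet the highest score of replicate 1 was 3.67, at 3LHet:2175427-2177427 (2.00 kb), which replicate 2 did not mark at all. The highest of replicate 2 was 4.11, at 3LHet:27310-28702 (1.39 kb), of which 15.1% was marked in replicate 1. On 3RHet the highest score was 3.20 in replicate 1, at 3RHet:1075411-1077401 (1.99 kb), also unmarked in replicate 2. In replicate 2 it was 3.38, at 3RHet:1433513-1436106 (2.59 kb), and replicate 1 marked 83.4% of it.

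**Figure D3:**
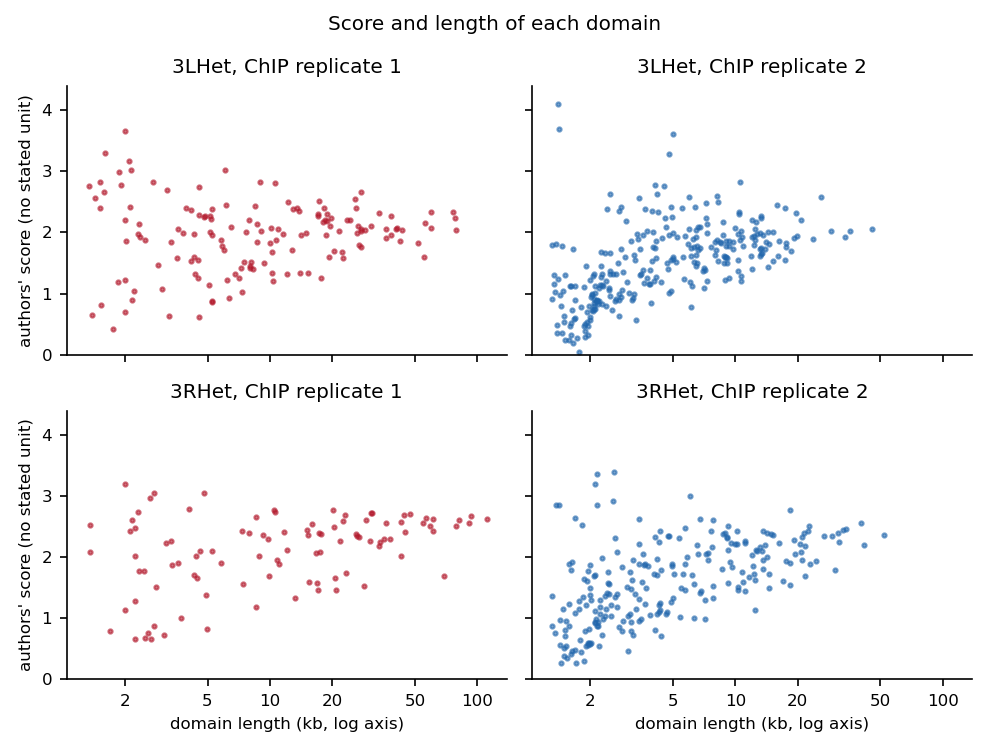
Authors' score (no stated unit) against domain length (kb, log axis) for each domain, in 1 panel per scaffold and replicate. Short domains span the whole range of scores, and domains of 50 kb or more lie between 1.60 and 2.67; low scores at short lengths are more frequent in replicate 2.

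Scores rose with length on both scaffolds in replicate 2, and in replicate 1 to a smaller degree on 3RHet and hardly on 3LHet. Spearman's rho of length and score across domains was 0.63 on 3LHet and 0.58 on 3RHet in replicate 2, and 0.07 and 0.35 in replicate 1, as a description across domains of the same library. In replicate 2 domains of 1 to 5 kb had a median score of 1.14 on 3LHet and 1.22 on 3RHet, and domains of 20 to 50 kb had 2.03 and 2.28. In replicate 1 the medians for the same length classes were 1.99 and 2.05 on 3LHet and 1.86 and 2.36 on 3RHet. The median score over all domains was higher on 3RHet than on 3LHet in each replicate, with 2.28 against 2.02 in replicate 1 and 1.64 against 1.55 in replicate 2, so that 3LHet minus 3RHet was -0.17 ± 0.12 (SD, n = 2; exact sign-flip permutation p = 0.5, two-sided, the lowest possible). Over the 129 domains of replicate 1 on 3LHet and the 89 on 3RHet that replicate 2 touched, Spearman's rho between the scores of the lists was 0.73 and 0.78. Of these domains, 72 on 3LHet and 56 on 3RHet met 2 or more domains of replicate 2, so the pairs do not match the lists domain by domain.

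The unmarked sequence fell into many short gaps and a few long ones, where a gap is any stretch outside the domains of a list, scaffold ends included. On 3LHet replicate 1 left 147 gaps with 422.5 kb in all, and replicate 2 left 283 gaps with 762.0 kb. On 3RHet there were 99 gaps with 463.0 kb and 237 gaps with 756.1 kb. The median gap was short and similar in all cases, at 1507 bp and 1236 bp on 3LHet and 1587 bp and 1349 bp on 3RHet. Gaps of up to 1 kb made up 42.2% and 45.6% of the gaps on 3LHet and 36.4% and 40.5% on 3RHet.

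**Figure D4:**
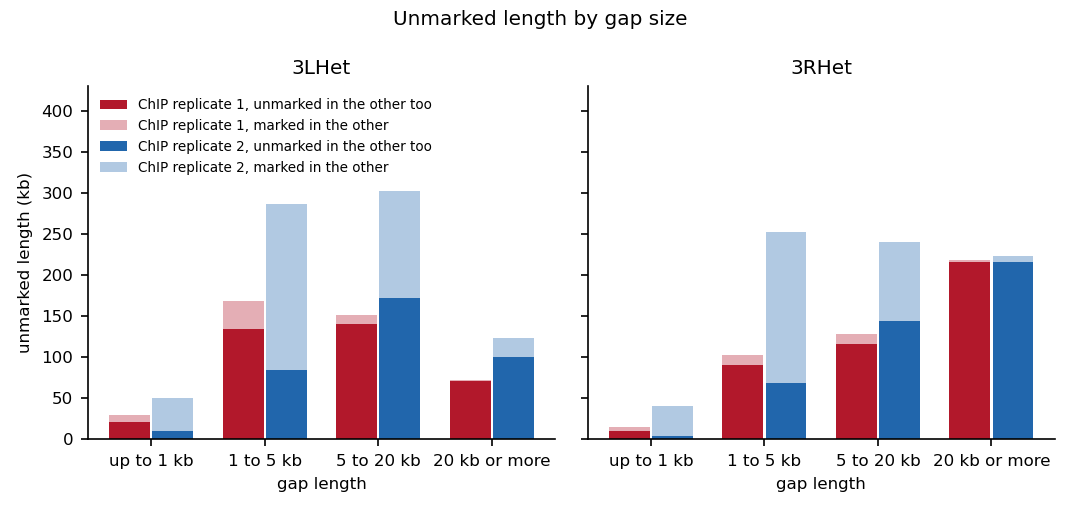
Unmarked length (kb) by gap length on each scaffold, with 1 bar per replicate; the dark part is unmarked in the other replicate too and the pale part is marked there. Pale parts fill most of the bars of replicate 2 for gaps under 5 kb, and gaps of 20 kb or more on 3RHet are dark in both replicates, at 218.4 kb and 223.2 kb.

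How far a gap was shared varied with its length. Of the gaps of up to 1 kb in replicate 2, 101 of 129 on 3LHet and 87 of 96 on 3RHet lay wholly inside domains of replicate 1. Of those between 1 and 5 kb, 70 of 113 and 67 of 109 did. Of those between 5 and 20 kb, 4 of 37 and 2 of 27 did, and of those of 20 kb or more, 0 of 4 and 0 of 5. Such counts tend to fall with length by construction, since a longer gap needs a longer unbroken domain around it. By length, replicate 1 marked 80.4%, 70.8%, 43.2% and 18.9% of these gap classes of replicate 2 on 3LHet, from shortest to longest. On 3RHet it marked 91.4%, 72.8%, 40.0% and 3.55%. Gaps of replicate 1 were seldom filled in replicate 2, with 24 of 147 on 3LHet and 13 of 99 on 3RHet lying wholly inside its domains. Part of this asymmetry is fixed by the smaller covered share of replicate 2.

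Gaps of at least 5 kb occurred 8.61 times per Mb on 3LHet in replicate 1 and 16.0 times in replicate 2. On 3RHet the rates were 7.94 and 12.7 per Mb. The difference between the sides, 2.00 per Mb ± 1.89 (SD, n = 2), was close to its spread. The sides also differed in how unmarked length was distributed. Gaps of 20 kb or more held 17.1% and 16.2% of the unmarked length on 3LHet, and 47.2% and 29.5% on 3RHet. The longest gap of a list measured 48.4 kb and 47.1 kb on 3LHet and 72.7 kb and 74.6 kb on 3RHet. Among gaps of at least 20 kb, the one most marked in the other replicate was 3LHet:2161154-2191669 (30.5 kb) of replicate 2, of which replicate 1 marked 61.4% with 6 domains and the combined list 51.1%.

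A set of 6 long stretches was unmarked in both replicates over at least 20 kb, 2 on 3LHet and 4 on 3RHet. The longest was 3RHet:448968-520807 (71.8 kb). It was followed on that scaffold by 3RHet:317383-366631 (49.2 kb), 3RHet:2383719-2431136 (47.4 kb) and 3RHet:2229890-2258426 (28.5 kb). On 3LHet the stretches were 3LHet:2328306-2375392 (47.1 kb) and 3LHet:1457026-1480897 (23.9 kb), and the next longest, 3LHet:203043-220571, measured 17.5 kb. Together the 6 stretches made up 268.0 kb, which was 33.6% of the 796.5 kb that neither replicate marked on the scaffolds. The least covered bin of 3LHet holds the 47.1-kb stretch, and the 2 least covered bins of 3RHet hold the 49.2-kb stretch and most of the 71.8-kb one. In the combined list the stretches were also unmarked over at least 99.4% of each.

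**Figure D5:**
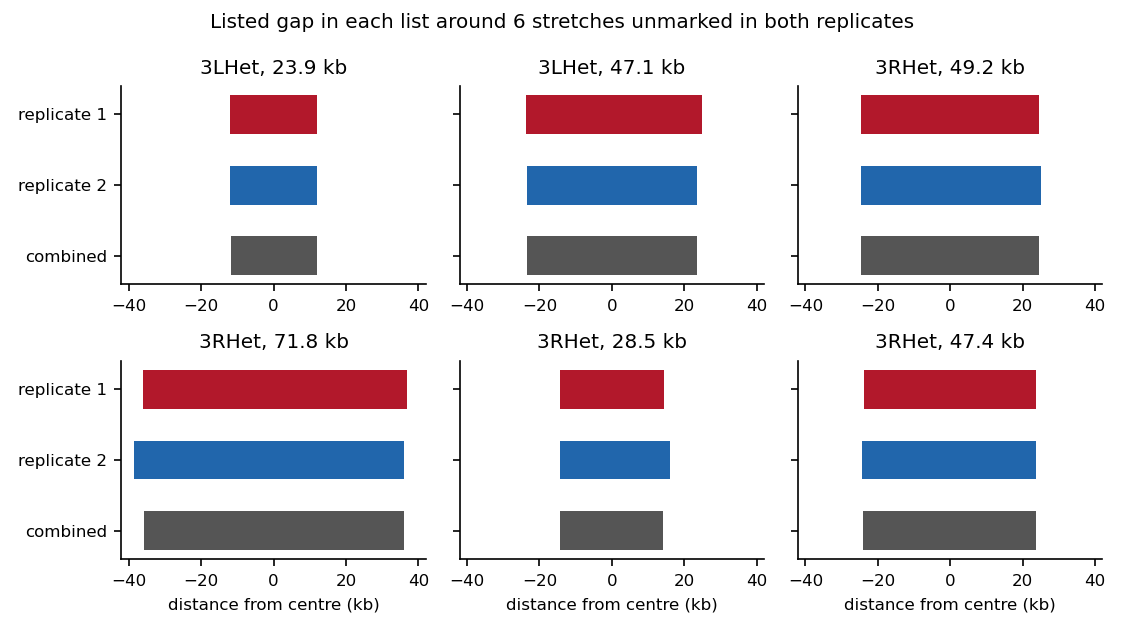
Extent of the listed gap in each replicate and in the authors' combined list around the 6 stretches unmarked in both replicates over at least 20 kb, as distance (kb) from the centre of the stretch. The bars of the lists begin and end at nearly the same places; the largest shift between replicates is 2717 bp, at the left border of the 71.8-kb stretch.

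The borders of these stretches fell at nearly the same positions in the replicates. At 6 of the 12 borders the lists differed by no more than 200 bp, the median shift was 207 bp, and 3 borders differed by more than 1 kb. The 49.2-kb stretch began 7 bp apart and ended 302 bp apart. The 71.8-kb stretch began 2717 bp apart, since replicate 1 marked sequence to its left that replicate 2 did not, and ended 854 bp apart. Over all domains, the start of a domain of replicate 1 had its nearest start in replicate 2 at a median distance of 692 bp on 3LHet and 576.5 bp on 3RHet. The 6 stretches were chosen for being unmarked in both lists, so the comparison of their borders is a description.

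The domains beside the long stretches were not uniformly strong. In replicate 1 their scores ran from 0.87 to 2.59, and in replicate 2 from 0.54 to 3.35, with the lowest value of each list to the left of the 47.4-kb stretch of 3RHet. The 23.9-kb stretch of 3LHet lay between long domains in both lists, of 55.7 kb and 25.6 kb in replicate 1 and 19.7 kb and 25.8 kb in replicate 2. The 71.8-kb stretch of 3RHet lay between domains of 8.84 kb and 15.2 kb in replicate 1 and of 2.02 kb and 1.62 kb in replicate 2.

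Of the 6 stretches, 5 lay in an outer segment of a scaffold and 1 in a middle segment. With these stretches left out of the scaffold length, the covered share of 3RHet became 88.5% in replicate 1 and 75.9% in replicate 2, and that of 3LHet 85.8% and 72.2%. The order of the sides then turned, with a difference of 3LHet minus 3RHet of -2.69 points in replicate 1 and -3.72 points in replicate 2, a mean of -3.20 ± 0.73 (SD, n = 2; exact sign-flip permutation p = 0.5, two-sided, the lowest possible). These stretches were chosen as unmarked in both lists and are longer in sum on 3RHet, so the shift towards 3RHet follows from the construction. The first segment of 3RHet had 93.5% and 78.5% without them, above the second segment with 87.3% and 75.7%. The fourth segment of 3RHet had 89.0% and 71.6%, above both middle segments in replicate 1 and below both in replicate 2. The fourth segment of 3LHet, nearest the centromere by the assembly convention, had 88.3% and 72.2%, against 88.2% and 72.1% in the second segment and 88.2% and 77.1% in the third. The first segment of 3LHet held none of them (0) and was then the least covered segment of that scaffold, with 78.9% and 67.5%. Whether these stretches hold undetermined bases, sequence to which reads cannot be aligned uniquely, or genes was not tested, because the genome sequence and annotation of Release 5 were not used here.

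The combined list resembled replicate 1 in the number of domains. It held 150 domains on 3LHet and 109 on 3RHet, close to the 147 and 100 of replicate 1, and its longest domain was 174.9 kb on 3RHet. It contained 88.1% of what replicate 1 alone marked on 3LHet and 91.8% on 3RHet, and over 99.8% of what replicate 2 alone marked (99.97% and 99.88%). Of the sequence marked in neither replicate it contained 43.9 kb on 3LHet and 44.5 kb on 3RHet. How this list was made from the replicates is not given in the sources used here, so its layout is not independent of them.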

How the data were processed

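H3K9me2 ChIP-seq of fly head nuclei comprised 2 ChIP and 2 input libraries. The submitters' processing notes name Bowtie 0.12.7 as the aligner, and region positions are on FlyBase Release 5, per the file headers. The caller and threshold were not given in the sources used here. Each deposited region carries a score with no stated unit. Scores describe and rank regions within a list and are set side by side between lists only as values, since their scales may differ. Input libraries were not analysed separately.

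Enriched regions on 3LHet and 3RHet were taken as listed, 1-based, with ends past a scaffold set to its length. Covered length, gaps, overlaps (at least 1 bp for a touch) and bins were computed with Python 3.11.15, NumPy 2.4.6, pandas 2.3.3 and SciPy 1.17.1, and the layout functions were tested on simulated scaffolds. Values are given per replicate and as mean ± SD. Differences within a replicate were tested with an exact sign-flip permutation test, two-sided, for which the lowest p with n = 2 is 0.5. Domains of a library are not replicates and were not tested.

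Named regions are the 3 longest domains, gaps, shared, unshared and unmarked stretches, the top-scoring domain and the extreme bins per scaffold, fixed by rule; members and rules were chosen with earlier results of these data known. The shares by scaffold segment, the long unmarked stretches and the domains beside them were chosen after their values were seen. Alternatives were score, joining and length filters, the combined list and leaving out a replicate.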

Additional observations from a re-analysis of the deposited data

How the results depend on the processing

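The order of the sides depended on the sequence counted, since the mean difference in covered share, 3LHet minus 3RHet, went from 1.04 points to -3.20 points when the stretches unmarked in both replicates over at least 20 kb were left out of the scaffold length; these stretches are longer in sum on 3RHet, so the reversal follows from the construction. The same step on every Het scaffold lowered the excess of the chromosome 3 scaffolds over the other 4 from 11.4 to 3.78 points. The score filter kept the better-scoring 50% of all regions of a list, so most domains of these scaffolds passed it. In replicate 1 it removed 9 of 147 domains on 3LHet and 8 of 100 on 3RHet. In replicate 2 it removed 52 of 282 and 37 of 237. With this filter the mean difference stayed above 0 at 0.34 points, although in replicate 2 alone it was -1.01. Joining gaps up to 1 kb raised the mean of the median domain lengths to 12666 bp on 3LHet and 13378.5 bp on 3RHet, and joining gaps up to 5 kb raised them to 52107 bp and 64386.5 bp and the covered share of 3LHet to 87.2%, since joining adds length by construction. The combined list had 7.04 gaps of at least 5 kb per Mb on 3LHet and 5.56 on 3RHet, and the cause was not tested. The Jaccard index was 75.5% on 3LHet and 79.8% on 3RHet with the better-scoring 50% of regions, 76.3% and 79.9% without regions under 2 kb, and 90.0% and 92.0% with gaps up to 5 kb joined. The filter at 1 kb removed 0 regions from these scaffolds in either replicate. Joining at 5 kb, the 2-kb filter and leaving out the long stretches were chosen after seeing the data. With either replicate left out, the covered share was 70.2% to 83.5% on 3LHet, 70.0% to 81.6% on 3RHet, and the difference was 0.21 to 1.86 points between them and 10.6 to 12.1 points to the other Het scaffolds. Median lengths were then 4152 to 8097 bp and 4081 to 11345.5 bp, with 8.61 to 16.0 and 7.94 to 12.7 gaps of at least 5 kb per Mb. Single replicates cannot leave the spread that they define, and joining gaps of up to 5 kb cannot change the number of longer gaps, so these settings say nothing about stability. No paired analysis was possible because pairing ChIP with input libraries, which share replicate numbers, needs region lists of the inputs, which were not used here; differences between scaffolds were already taken within a replicate. With n = 2 and unknown depth, differences in length between replicates cannot be told apart from differences in depth.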
